A study of Mus musculus with 2 samples.

Results

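Globin and heme have to be made in step in a maturing red cell, and a small set of genes links the 2 supplies. Considered were 7 such genes (Ahsp, Eif2ak1, Atf4, Ppp1r15a, Bach1, Hmox1 and Fbxo7), listed by name for their roles, with earlier results of these data known. Of these, 6 could be placed on the genome and were measured, out of 21536 protein-coding genes with a known strand. Ahsp, which encodes the chaperone of free alpha globin, was not analysed here. All 6 measured genes carried H3K4me3 at the 5' end in both replicates, yet with different strength and shape. Mean enrichment was above the upper quartile of marked genes at Bach1, Eif2ak1 and Ppp1r15a and within the quartiles at Fbxo7. It was below the lower quartile at Atf4, whose domain was of middling width, and at Hmox1, whose domain was narrow. The place of Bach1 depended on the peak set and the peak used. In the pooled set it had 15.4, under the upper quartile (15.8). The Ppp1r15a domain ran over the whole gene, and Hmox1 had a stronger peak about 10 kb upstream than at its own start.

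The samples were 2 biological replicates of 1 group, the mouse erythroleukaemia line MEL, an immortalised line of erythroid precursors, after 5 days in 2% dimethyl sulfoxide (DMSO), a textbook inducer of their maturation. Histone H3 trimethylated at lysine 4 (H3K4me3), a mark found at the starts of active and poised genes, was mapped by chromatin immunoprecipitation and sequencing. Both replicates had the same line, agent, dose and time, no allele or transgene is named in the labels, and untreated cells were not analysed here, so the values describe treated cells and no change with DMSO was measured. The deposited data are called peaks (48026 in replicate 1 and 46950 in replicate 2) without read counts, so the depth is unknown and no test between groups could be made. The erythroid markers Klf1, Gata1, Epor, Alas2 and Slc4a1 were marked, the weakest being Slc4a1 with values of 3.97 and 4.51. Of the markers of other blood cells, Ptprc was marked, with values of 24.7 and 20.2, and Cd3e, Mpo and Itgam were not. Itgam had a weak peak inside the gene (4.63 and 2.73), with summits 3243 and 3029 bp downstream of its start.

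As background, the kinase HRI, encoded by Eif2ak1, is held inactive by heme and, when heme runs short, phosphorylates the translation factor eIF2, which slows globin synthesis. The same phosphorylation lets ribosomes translate Atf4, a transcription factor of the integrated stress response, and Ppp1r15a encodes the phosphatase subunit GADD34 that reverses it. On the other arm, BACH1 is a repressor that pairs with small MAF proteins and releases DNA when it binds heme. Its best known target is Hmox1, the inducible heme oxygenase, which opens the heme ring, whereas the transcription factor NRF2 acts on the same sites as an activator. FBXO7 is the F-box subunit of an SCF ubiquitin ligase and binds the proteasome regulator PI31.

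Positions are on the build mm10 (GRCm38). Starts are the annotated 5' ends of RefSeq transcripts for 17492 genes and the outer end of the gene for 4044 others, Hmox1 among them. A gene was counted as marked where each replicate had a peak touching the window of 1000 bp to either side of a start. Its enrichment value is the largest signal value the authors gave to those peaks, a number whose scale is not stated. Its domain is the widest chain of peaks that are no more than 1000 bp apart. By this rule 6 of 6 measured genes were marked, against 48.8% of all protein-coding genes, and 6 of 6 had a peak within the gene span in both replicates, against 56.7%. A peak lay on a start itself in both replicates in 3 of 6 (Ppp1r15a, Hmox1 and Fbxo7, the last through the second of its 2 starts), against 23.9% of all genes. Among the 10506 marked genes the enrichment value, averaged over the replicates, had a median of 13.3 and quartiles of 11.0 and 15.8. The domain width, averaged likewise, had a median of 2265 bp and quartiles of 1711 and 3027 bp. The 6 genes had a median value of 16.4 and a median width of 3046 bp.

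**Figure D1:**
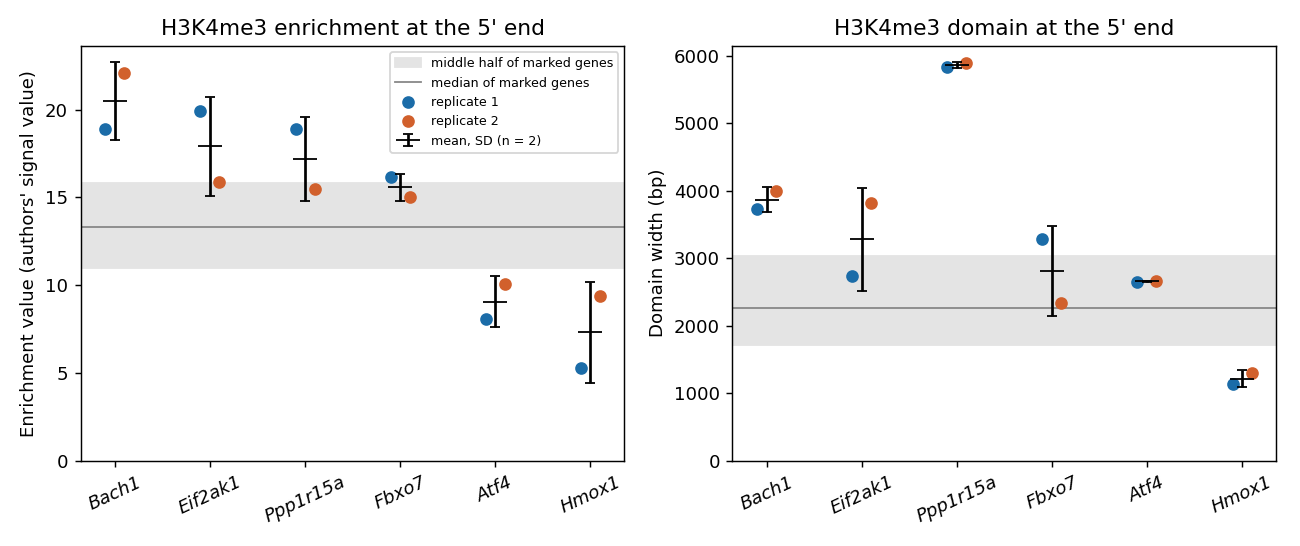
Enrichment value (left) and domain width in bp (right) at the 5' end of the 6 genes, with a point for each replicate and a bar for the mean ± SD (n = 2); the grey band is the interquartile range of all marked genes and the line their median. Bach1, Eif2ak1 and Ppp1r15a have means above the band for both measures, Atf4 lies below it for the value but inside it for the width, and Hmox1 lies below both.

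The promoter sequences of the genes on which the results turn come from RefSeq (GRCm38.p6), which held a promoter for 5 of the 6 measured genes. Each is the run of 250 bases that ends just before the annotated start, 5′ to 3′ on the gene's own strand. The Eif2ak1 and Bach1 promoters are shown first because they hold the peak-free stretch described further on. In these, capitals mark the bases that lay under no peak in either replicate, bounded by a peak on both sides, from 124 bases before the start onward for Eif2ak1 (143817542 to 143817791 of chromosome 5, plus strand) and from 186 to 24 bases before it for Bach1 (87698704 to 87698953 of chromosome 16, plus strand).
Eif2ak1: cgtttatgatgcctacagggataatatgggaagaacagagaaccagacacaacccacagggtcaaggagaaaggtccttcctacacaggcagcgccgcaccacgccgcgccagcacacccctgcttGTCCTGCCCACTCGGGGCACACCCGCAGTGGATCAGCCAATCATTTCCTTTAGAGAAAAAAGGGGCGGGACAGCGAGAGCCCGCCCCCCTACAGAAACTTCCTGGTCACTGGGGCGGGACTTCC
Bach1: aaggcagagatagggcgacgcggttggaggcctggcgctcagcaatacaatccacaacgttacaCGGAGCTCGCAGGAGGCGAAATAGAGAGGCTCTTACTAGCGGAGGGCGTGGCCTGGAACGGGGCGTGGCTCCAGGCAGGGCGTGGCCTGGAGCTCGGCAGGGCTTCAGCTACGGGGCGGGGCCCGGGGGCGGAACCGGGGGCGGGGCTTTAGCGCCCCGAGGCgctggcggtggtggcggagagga
The Bach1 promoter had a GC content of 69.2% and a ratio of observed to expected CpG of 0.908, and the Eif2ak1 promoter 58.8% and 0.561. The medians over the promoters of marked genes were 60% and 0.741.

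The Atf4 and Ppp1r15a promoters are shown for the motif matches they hold, which capitals mark here. Atf4 is at 80254934 to 80255183 of chromosome 15, plus strand, and Ppp1r15a at 45526269 to 45526518 of chromosome 7, minus strand.
Atf4: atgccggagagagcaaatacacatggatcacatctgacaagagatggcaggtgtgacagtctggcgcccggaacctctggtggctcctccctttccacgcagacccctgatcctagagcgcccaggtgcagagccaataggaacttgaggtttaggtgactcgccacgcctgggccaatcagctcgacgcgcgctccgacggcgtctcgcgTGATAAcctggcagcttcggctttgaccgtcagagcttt
Ppp1r15a: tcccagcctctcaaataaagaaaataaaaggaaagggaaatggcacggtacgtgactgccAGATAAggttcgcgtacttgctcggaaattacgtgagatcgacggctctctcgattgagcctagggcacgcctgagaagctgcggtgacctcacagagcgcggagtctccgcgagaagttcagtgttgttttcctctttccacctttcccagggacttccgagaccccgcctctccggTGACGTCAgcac
Letters were searched on both strands. For GATA factors these were TGATAA and, as the second form, AGATAA. TGACNNNGC stands for the antioxidant response element read by MAF partners, CCACACCC for a box bound by erythroid factors of the Krüppel type, TGATGNAA for a composite site of C/EBP and ATF factors, and TGACGTCA for the cyclic AMP response element, read by factors of the CREB and ATF class. The last was the core promoter motif TATAAA. Atf4 held TGATAA from 39 to 34 bases before its start, as did 6.94% of 21263 promoters of this length at some position. That match lay in the peak-free stretch of both replicates. Ppp1r15a held AGATAA from 190 to 185 bases before its start (8.81% of promoters), under the upstream peak. It also held TGACGTCA from 12 to 5 bases before its start (1.92% of promoters), at the upstream edge of its strongest peak. The promoters of Eif2ak1, Bach1 and Fbxo7 held none of these letters in this window. TGACNNNGC (10.4% of promoters), CCACACCC (3.32%), TGATGNAA (3.18%) and TATAAA (11.6%) had no match in any of the 5 promoters. Past the annotated start of Ppp1r15a, TATAAA stood at 15 to 20 bases downstream and TGACNNNGC on the opposite strand at 3 to 11 bases downstream. These are matches of letters, and binding was not measured.

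Eif2ak1 (gene 15467, chromosome 5, 143817792 to 143902717, plus strand), the heme sensor, had an enrichment value of 19.9 in replicate 1 and 15.9 in replicate 2. Both replicates lay above the upper quartile of marked genes (15.8, taken over means of the replicates), replicate 2 only just. The mean was 17.9 ± 2.84 (SD, n = 2, as for all means here), at the 88.3 percentile of marked genes. The strongest peak began 3 bp after the start in replicate 1 and 17 bp after it in replicate 2 and had its summit at 534 and 489 bp. A weaker upstream peak had values of 9.87 and 10.9, and the start itself lay between them, in gaps of 146 and 141 bp. The domain was 2743 bp wide in replicate 1 and 3821 bp in replicate 2 (3282 ± 762 bp). The extra width of replicate 2 came from its longer upstream peak and from 2 weak peaks (3.30 and 2.74) between 1995 and 2656 bp downstream that replicate 1 lacked. Of the 84926 bp of the gene, peaks covered 1.94% and 2.51%, all near the 5' end.

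Atf4 (gene 11911, chromosome 15, 80255184 to 80257545, plus strand), whose protein carries the response onward, had values of 8.05 and 10.1. Both fell below the lower quartile of marked genes, and the mean of 9.06 ± 1.44 was at the 12.3 percentile. The width was not low: 2653 and 2665 bp (2659 ± 8.49 bp), at the 64.9 percentile. Peaks of 1701 and 1814 bp lay downstream of the start and covered 72.0% and 76.5% of this short gene. The median over the 1251 marked genes of at most 5000 bp was 36.0%. That group includes genes longer than Atf4 (2362 bp), and the share was not compared among genes of like length. In replicate 2 the upstream peak (10.1, summit 328 bp before the start) was higher than the downstream one (8.61). In replicate 1 the downstream peak (8.05) exceeded the upstream one (7.45). Atf4 in replicate 2 was the only one of 12 pairs of gene and replicate with its strongest summit upstream.

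Ppp1r15a (gene 17872, chromosome 7, 45522917 to 45526268, minus strand), which encodes the subunit that ends eIF2 phosphorylation, had the widest domain of the 6 when peaks were joined over 1000 bp, at 5836 and 5897 bp. The replicates differed by little beside the next widest gene, Bach1, whose mean was 1996 bp narrower, and the values of these genes did not overlap. The mean of 5867 ± 43.1 bp was at the 98.0 percentile of marked genes. Both other joining distances put Bach1 first, with 2147 bp against 1278 bp where no peaks were joined and 9469 bp against 8858 bp where gaps of up to 3000 bp were joined. Peaks covered 85.3% and 88.6% of the gene, and the domain went on past its 3' end, to 4968 and 4957 bp from the start. The strongest peak had values of 18.9 and 15.5 (17.2 ± 2.42, at the 84.3 percentile) and lay over the start. In replicate 2 this value was below the upper quartile of marked genes (15.8). A second maximum of 12.0 and 11.7 began 2103 and 2115 bp downstream, so the 3' part of the gene alone held values near the lower quartile of marked 5' ends. The start of Plekha4, on the opposite strand, lies 62 bp away and shares the strongest peak, and the 3' end of the gene overlaps that of Tulp2, also on the opposite strand. How much of the signal belongs to each of these genes cannot be told apart.

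**Figure D2:**
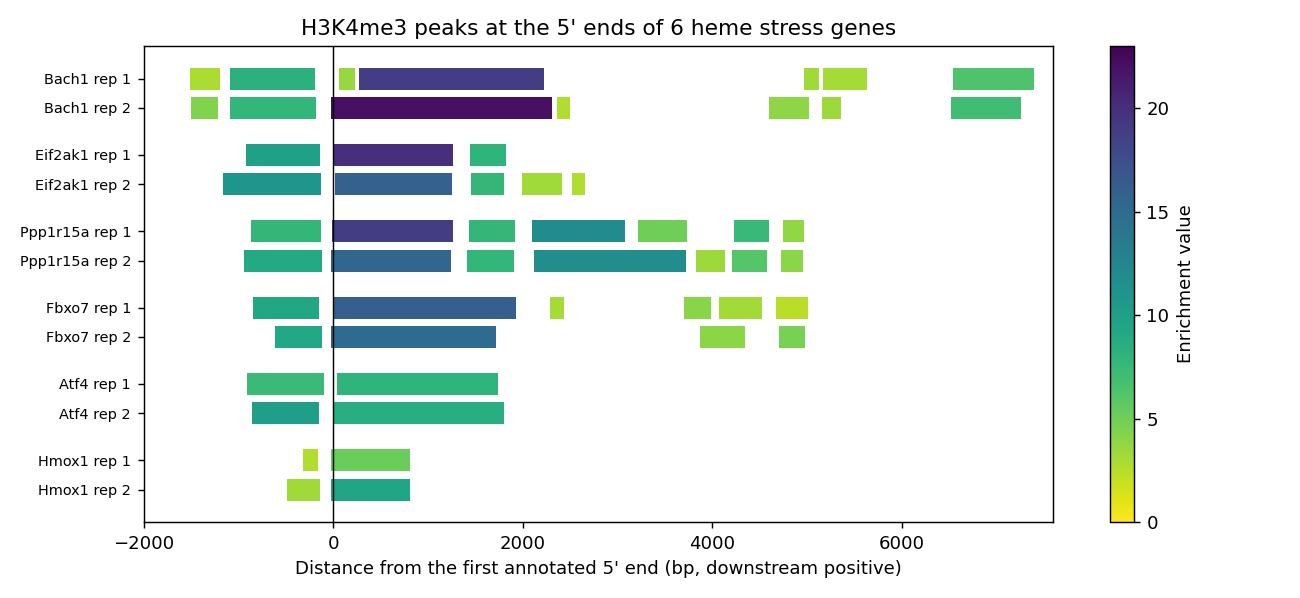
Peaks of each replicate (rows) around the first annotated 5' end of each gene, placed in bp with downstream to the right and shaded by enrichment value. Every row has a gap just before the start, the chain of peaks at Ppp1r15a is the longest, and that at Hmox1 the shortest.

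Bach1 (gene 12013, chromosome 16, 87698954 to 87733346, plus strand), the heme-binding repressor, had the highest mean value of the 6 when the largest value of each replicate was taken. It stood at 18.9 in replicate 1 and 22.1 in replicate 2, with a mean of 20.5 ± 2.22 at the 96.4 percentile of marked genes. In the pooled and replicated sets Bach1 had 15.4, below Eif2ak1 (19.8) and Ppp1r15a (16.2). With the value of the peak that overlaps the window most its mean was 15.2, below Eif2ak1 (17.9), Ppp1r15a (17.2) and Fbxo7 (15.6). Both 15.4 and 15.2 lie under the upper quartile of marked genes (15.8), which was taken over means of the largest values. The domain was 3738 and 4003 bp wide (3871 ± 187 bp, 88.7 percentile). The main peak had its summit 618 and 456 bp downstream. In replicate 1 a weak peak of 172 bp (3.58) stood apart between it and the start, whereas in replicate 2 a single peak of 2331 bp ran from 23 bp before the start. Bach1 also had peaks deep in the gene, which were counted after they had been seen. More than 4000 bp downstream of the start there were 7 peaks in replicate 1 and 8 in replicate 2, and 5 of the former overlapped one of the latter. The highest, with summits 6983 and 6892 bp downstream, had values of 6.40 and 7.02, and a pair about 14 kb downstream had values of 5.47 and 4.74 in replicate 1 and 6.71 and 5.98 in replicate 2. These are well under the values at the start. Among 951 marked genes of 30000 to 40000 bp, Bach1 included, the median number of such peaks was 0 and 0.315% had at least as many as Bach1.

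Hmox1 (gene 15368, chromosome 8, 75093618 to 75100593, plus strand), the target of BACH1 and the enzyme that degrades heme, had the lowest mean value of the 6. Replicate 1 gave 5.26 and replicate 2 gave 9.36, both under the lower quartile of marked genes. The mean was 7.31 ± 2.90, at the 6.26 percentile. The replicates differed by 1.78-fold, where the median marked gene differed by 1.25-fold and the 90th percentile was 1.73, so the level at Hmox1 is known less well than its low rank. The domain was also narrow, 1130 and 1304 bp (1217 ± 123 bp, 9.16 percentile), and the difference from the next narrowest gene, Atf4 (1442 bp), exceeded the spread of the replicates. A single peak of 840 and 831 bp covered the start and 11.6% of the gene in both replicates, and a small upstream peak had values of 2.76 and 3.28. Downstream of 811 bp Hmox1 had no peak in either replicate.

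Upstream of Hmox1 the signal was higher than at the gene. A peak at 75083405 to 75083957 in replicate 1 and at 75083398 to 75083956 in replicate 2 had its summit 9759 and 9772 bp before the start and values of 7.23 and 11.9. Next to it, summits 9382 and 9406 bp before the start had values of 6.93 and 5.26. Distal enhancers upstream of Hmox1 that BACH1 and NRF2 share are textbook knowledge. Whether these peaks coincide with them was not tested. Looking for such peaks after these had been seen, in the stretch from 2000 to 15000 bp before the start and more than 1000 bp from every gene start with a known strand, 3 of the 6 genes had one shared by the replicates, against 24.9% of marked genes. The others were Bach1, with values of 4.71 and 6.02 and summits 9735 and 9743 bp upstream, and Atf4, with 3.56 and 2.94 and summits 4175 and 4227 bp upstream. Only at Hmox1 among the 6 was the upstream peak above the 5' end in both replicates, a property of 1.88% of marked genes. That share is over marked genes of any 5' value. It was not taken among genes as weak at the 5' end as Hmox1, where a low value is easier to exceed.

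Fbxo7 (gene 69754, chromosome 10, 86020449 to 86051873, plus strand) had values of 16.1 and 15.0, the closest pair of replicates among the 6. The mean was 15.6 ± 0.776, at the 73.0 percentile of marked genes. Its annotated starts were at 86021929 and 86022154. In replicate 1 the main peak began 3 bp after the first start, with a summit at 766 bp, and in replicate 2 it began 20 bp before it, with a summit at 114 bp. The domain was 3283 and 2337 bp wide (2810 ± 669 bp, 69.3 percentile). In replicate 1 an isolated weak peak (3.08) lay at the 3' edge, the upstream peak was longer (692 bp against 496 bp) and the main peak reached farther (1932 bp against 1721 bp downstream). Weak peaks of 2.40 to 4.76 lay between 3698 and 5008 bp downstream in both replicates. The gene's outer end lies upstream of both starts, and a window placed there met only the upstream peak, with a mean value of 9.27.

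Ordered by mean enrichment value, the genes ran Bach1, Eif2ak1, Ppp1r15a, Fbxo7, Atf4 and Hmox1. Of the 5 neighbouring pairs in this order only Fbxo7 and Atf4 had replicate values that did not overlap, with means 6.53 apart. The other 4 neighbouring pairs, Atf4 and Hmox1 included, had overlapping replicate values. Compared within each replicate, Eif2ak1 was above Ppp1r15a, Ppp1r15a above Fbxo7 and Atf4 above Hmox1 in both. Bach1 was below Eif2ak1 in replicate 1 (18.9 against 19.9) and above it in replicate 2. Ordered by width they ran Ppp1r15a, Bach1, Eif2ak1, Fbxo7, Atf4 and Hmox1, and only Ppp1r15a against Bach1 and Atf4 against Hmox1 did not overlap. With 2 replicates and no contrast these are descriptions, and overlap of the replicates does not show that levels are equal.

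**Figure D3:**
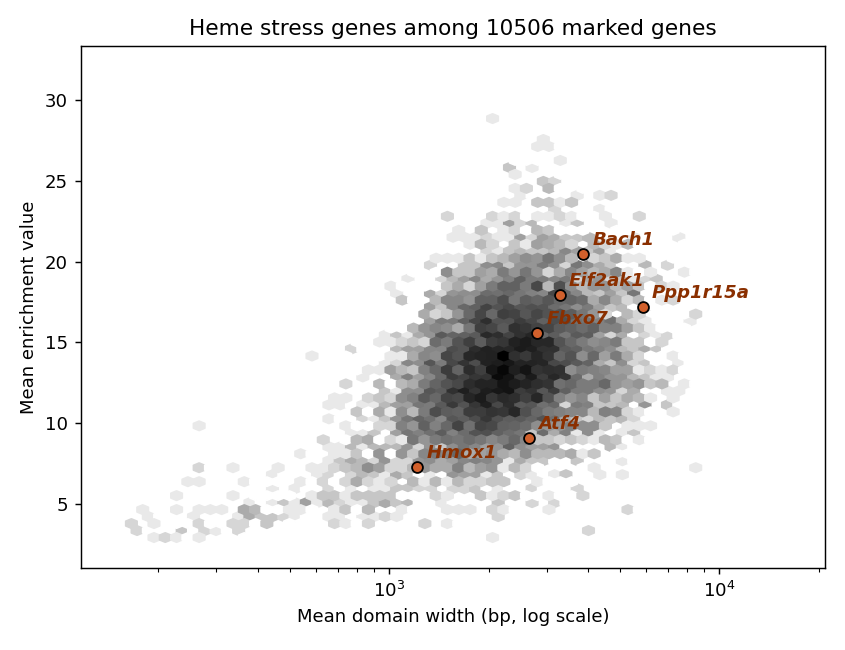
Mean enrichment value against mean domain width (bp, log scale) for the 10506 genes marked in both replicates, as grey hexagons darker where there are more genes, with the 6 genes as labelled points. Ppp1r15a (5867 bp) stands at the wide edge, Bach1 (20.5) near the top, and Atf4 (9.06) low for its width.

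A shared shape was a break in the peaks just before the start. The base 50 before the first start was under no peak and flanked by peaks on both sides in 12 of 12 pairs of gene and replicate, that is in 6 of 6 genes. Among marked genes 35.1% had this in both replicates, with a median stretch of 191 bp. The position was picked after the peaks of the 6 genes had been seen. The stretches of the 6 genes were 95 to 252 bp long. The part that lay free in both replicates was 127 bp at Eif2ak1, 163 bp at Bach1, 93 bp at Atf4, 95 bp at Ppp1r15a, 108 bp at Hmox1 and 99 bp at Fbxo7. Of all marked genes 39.3% in replicate 1 and 54.3% in replicate 2 had a peak over this base. The strongest summit was downstream of the start in both replicates for 5 of the 6 genes, against 57.8% of marked genes, and Atf4 was the exception. Gaps between called peaks are edges set by the authors' caller, and nucleosomes were not mapped.

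**Figure D4:**
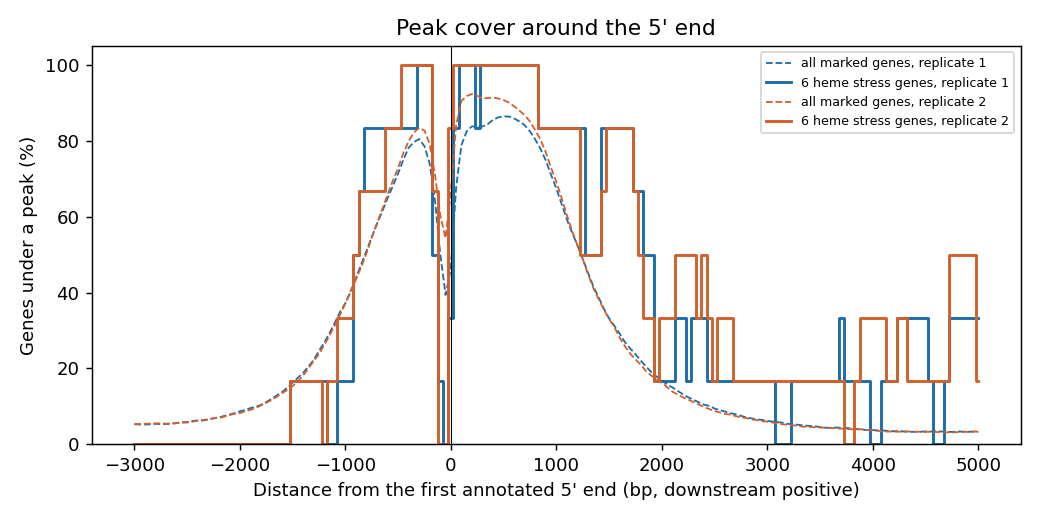
Percent of genes under a peak by distance in bp from the first annotated 5' end, in each replicate, for all marked genes (dashed) and for the 6 genes (steps of 1 gene). Both fall just before the start, to 39.3% and 54.3% at 50 bp upstream for all marked genes and to 0 of the 6 genes.

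The genes around the 6 in their pathways were mostly marked as well. Over 5 lists, 72 of 78 genes were marked, against the 48.8% of all protein-coding genes given above. The list of 16 regulators of the integrated stress response includes eIF2 itself and its exchange factor. All 16 were marked, with a median value of 14.1 and a median width of 2503 bp. The highest were Eif2b5 (20.4 and 21.8), a subunit of the exchange factor that phosphorylated eIF2 inhibits, and Eif2ak4 (19.8 and 17.6), the related kinase GCN2 that senses amino acid shortage. Of 22 targets and partners of ATF4, 20 were marked, with a low median value of 11.1 beside a median width of 3083 bp. Asns, asparagine synthetase, had 28.1 and 17.4, and Phgdh, which starts serine synthesis, had 12.6 and 21.4. Both had replicates far apart. Nupr1 and Vldlr had no peak at the start or in the gene.

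In the list for heme breakdown and the BACH1 and NRF2 axis, 18 of 20 genes were marked, with a median value of 12.4 and a median width of 2581 bp. The highest were the subunits of the enzyme that starts glutathione synthesis, Gclm (29.8 and 12.5) and Gclc (23.8 and 15.3). The replicates of Gclm differed by 2.38-fold and its first place rested on replicate 1. In replicate 2, with 12.5, it was below Gclc and several other genes of the list. These include Maff (20.4), Mafk (18.3) and Keap1 (14.8), named here after their values were seen. Gclc (15.3) was below Maff and Mafk in that replicate too. Hmox2, the constitutive heme oxygenase, and Bach2, the lymphoid relative of Bach1, were not marked at the start used. Each had peaks elsewhere in the gene. The highest at Hmox2 lay over its outer end in both replicates (10.1 and 14.0), about 15 kb before the start used. Bach2 had 13 peaks in replicate 1 and 11 in replicate 2, and 8 of the former overlapped one of the latter. Its highest peak was not the same one in the replicates: that of replicate 1 (11.1) lay 65147 bp inside the gene and that of replicate 2 (17.4) lay 408 bp from the outer end. Relative to the start used, their summits were at -113509 and -178390 bp (negative is upstream). That start thus lies far inside the gene, and the missing mark refers to it alone.

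Of 10 genes listed as chaperones and cochaperones around HRI, 8 were marked, with a median value of 13.3 and a median width of 2729 bp. The highest were Fkbp5 (19.9 and 20.5) and Ptges3 (16.1 and 17.2), cochaperones of HSP90. Hspa1a and Hspa1b, the heat-inducible HSP70 genes, had no peak. They are near-identical neighbours, so reads from them may not be placed uniquely, and their values are uncertain. All 10 partners of FBXO7 and factors of globin breakdown were marked, with a median value of 12.1 and a median width of 3051 bp. The highest by mean were Cul1 (16.4 and 24.7), the scaffold of SCF ligases, and Usp15 (18.5 and 20.2), a deubiquitinase. The first place of Cul1 rested on replicate 2. In replicate 1 Rbx1 (20.8) was above both, and Usp15 and Skp1 (17.0) were above Cul1. Rbx1 and Skp1 are named here after their values were seen.

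**Figure D5:**
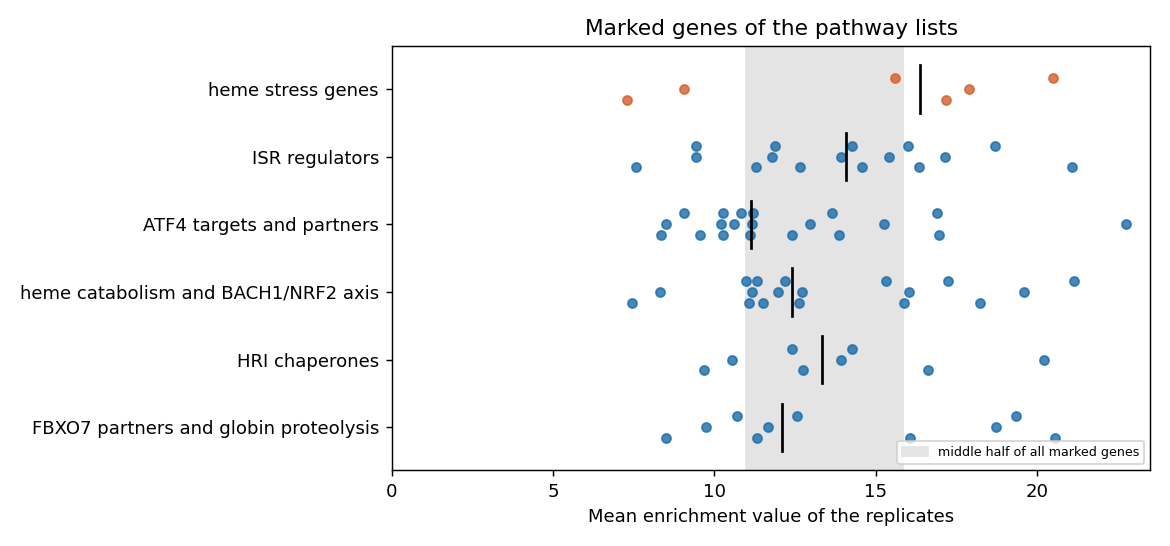
Mean enrichment value of each marked gene of the 6 measured genes (top row) and of the 5 pathway lists, a point per gene, with a line at each list's median; the grey band is the interquartile range of all marked genes. The medians run from 11.1 for the ATF4 list to 16.4 for the 6 genes.

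The gene most like each of the 6 was sought by the distance over 4 values, the log2 enrichment value and log2 width of each replicate, with 2 samples behind it. For Bach1 this was Tsc22d4 (values 18.5 and 21.0, distance 0.10), for Hmox1 Tmem86a (5.23 and 9.27, distance 0.11), for Atf4 Car14 (8.57 and 10.5, distance 0.13) and for Fbxo7 Vps26a (16.6 and 13.8, distance 0.14). Eif2ak1 had the farthest, Rb1cc1 (17.3 and 16.1, distance 0.23). For Ppp1r15a it was Plekha4, which has the same peaks and so a distance of 0. The next was Purb (17.1 and 15.1, distance 0.16), named after its values were seen.

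In an older peak set on the build mm9, deposited for the whole series with values on another scale, all 6 genes had a peak at the 5' end. Its order differed: Fbxo7 (3.09) was highest, followed by Eif2ak1 (3.03), Ppp1r15a (3.01), Atf4 (2.76), Bach1 (2.53) and Hmox1 (1.70). Bach1, highest by mean in the replicates' own sets, thus stood below Atf4, and Hmox1 was lowest in both. The order of peak widths on mm9 differed too. Bach1 (4003 bp) was wider than Ppp1r15a (3890 bp), followed by Atf4 (3314 bp), Eif2ak1 (2770 bp), Fbxo7 (2517 bp) and Hmox1 (1290 bp). The notes read here name no input for that set, so whether it is independent of the others is unknown.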

How the data were processed

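Per the labels, H3K4me3 ChIP-seq was done on 2 biological replicates of MEL cells. The authors deposited peak sets on mm10 for each replicate, for the pooled alignments and for replicated peaks, and an older set on mm9. Each peak has a signal value and a p-value and q-value on a −log10 scale, per the file headers and notes deposited with them. The aligner, peak caller and threshold are not given in the sources used here.

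Starts came from RefSeq promoters (GRCm38.p6) for 17492 protein-coding genes. For 4044 others, Hmox1 among them, the start was the outer end of the gene with the strand from GENCODE M1, and 351 genes without a strand were left out. No exon, intron or untranslated region was annotated on mm10. Peaks were counted as overlapping from 1 bp, with Python 3.11.15 and numpy 2.4.6, by code tested on simulated data. No statistical test was run, since there is 1 group. Precision is the SD of 2 replicates.

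Members and lists were chosen with earlier results of these data known. Named are all members, and of each list the unmarked genes and the 2 marked genes with the highest mean value. Genes sharing a 5' peak with a member and the most similar gene are named as well. Some genes of the cell marker lists are not reported here. Alternatives were windows of 500 and 2000 bp, a peak on the start itself, gaps of 0 and 3000 bp, −log10 q of at least 2 and 5, the pooled and replicated sets, the peak that overlaps the window most and each replicate left out.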

Additional observations from a re-analysis of the deposited data

How the results depend on the processing

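All 6 measured genes stayed marked in the narrower window, at both q-value minimums and in the pooled, replicated and mm9 sets. They also stayed marked from the gene's outer end, which differs from the start used only at Fbxo7. The wider window and leaving out a replicate could not unmark a gene by construction. The demand that a peak cover the start itself moved the counts by over 1.5 times, to 3 of the 6 genes, 23.9% of all protein-coding genes and 30 of the 78 listed genes. Under the other alternatives the share of all genes ran from 46.7% to 49.9% and the listed genes from 69 to 73. Leaving out either of 2 replicates moves a mean by less than their SD by construction, so those values are not counted here. Of 48 other enrichment values of single genes, 42 moved by no more than the SD of the replicates. The 6 others were at Bach1 (15.4 in both the pooled and the replicated set, 15.2 with the peak that overlaps the window most) and at Fbxo7 (11.4 in both the pooled and the replicated set, 9.27 from the gene's outer end, an alternative added after seeing the data). Many of the 48 were not separate checks. Both other windows and both q-value minimums returned the main value for each gene. The outer end is the start used except at Fbxo7, and the pooled and replicated sets gave identical values. Of 36 other widths, 22 moved by no more than the SD, and the outer end left every width unchanged. Without joining peaks the widths were 835.5 to 2147 bp and Bach1, not Ppp1r15a (1278 bp), was widest. Joined over 3000 bp, Bach1 reached 9469 bp, Ppp1r15a 8858 bp and Fbxo7 5724 bp. At a −log10 q of at least 5, Hmox1 narrowed to 835.5 bp. With only 1 group there was no pairing of samples between groups. Without read counts, how far depth limits the weak peaks is unknown.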
